A study of Solanum lycopersicum with 2 samples.

Results

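The class III homeodomain leucine zipper family, HD-ZIP III, was followed here through 6 tomato gene copies in single cells of the root. The copies carry the identifiers Solyc11g069470, Solyc02g069830, Solyc02g024070, Solyc03g120910, Solyc12g044410 and Solyc08g066500. They were given as a list of identifiers, out of 34716 genes in each count table. All 6 were found, and all 6 were among the 21682 genes kept after filtering. None of them is on the study's list of genes induced by protoplasting, the enzymatic removal of cell walls. The sources at hand do not pair the identifiers with gene names, so each copy is called by its identifier and none is matched to a gene of another species.

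HD-ZIP III proteins are plant transcription factors that carry a homeodomain, a leucine zipper and a START lipid-binding domain. In Arabidopsis their transcripts are cut under the guidance of the small RNAs miR165 and miR166, and small LITTLE ZIPPER proteins block their pairing. Family members there pattern the vascular cylinder and set xylem fate. In the Arabidopsis root, SHORT-ROOT protein moves out of the stele and acts with SCARECROW in the endodermis, where it turns on miR165 and miR166 genes. The small RNAs then spread back into the stele and grade the HD-ZIP III transcripts. Short RNAs of this kind are not counted by a library that primes on poly(A) tails.

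Both libraries were made from wild-type roots of the cultivar M82 (Solanum lycopersicum), taken 7 days after sowing as tips of about 3 cm. Roots of many seedlings were pooled and turned into protoplasts for each library, so a library is the replicate and n = 2 throughout. There was no treatment beyond protoplasting, and the comparisons are between classes of cells of the same roots. Cells were tagged in droplets, and each transcript was counted once by a unique molecular identifier (UMI) at its 3′ end, so a UMI count is not scaled by transcript length.

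Replicate 1 held 12481 barcodes with 187215851 UMIs, and replicate 2 held 10253 with 81175339. After filtering, 12403 and 10231 cells were kept. The libraries shared 38 barcodes, 37 of them among kept cells, which held 32 HD-ZIP III UMIs in all. Cells were marked as xylem, phloem, endodermis, dividing or exodermis cells when they held at least 3 UMIs from at least 2 genes of that class's marker list, and the HD-ZIP III copies were in no list. This marked 59 and 72 cells as xylem, 77 and 146 as phloem, 136 and 246 as endodermis, 579 and 201 as dividing and 66 and 239 as exodermis in replicates 1 and 2. A further 8 and 16 cells passed for several classes and were left out, and 11478 and 9311 passed for none and are called unmarked. Unmarked cells can include cells of these classes that did not pass the gates. Levels are UMIs summed over a class and given as counts per 1000000 of its summed UMIs (CPM), with exact 95% Poisson intervals that cover counting error only.

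Across all cells the family was sparse. The 6 copies together held 4523 UMIs in replicate 1 and 3388 in replicate 2, or 25.3 and 44.2 CPM, and at least 1 of them was counted in 16.4% and 16.5% of cells. Solyc11g069470 was the most counted copy, with 8.28 and 13.5 CPM and 32.7% and 30.5% of the family's UMIs. Solyc08g066500 had 4.58 and 9.90 CPM, Solyc12g044410 4.64 and 6.50 CPM and Solyc03g120910 3.71 and 7.18 CPM. Solyc02g024070 had 2.06 and 4.63 CPM, and Solyc02g069830 was the least counted in replicate 2, with 2.07 and 2.49 CPM. Every copy was higher in replicate 2, by 1.20-fold for Solyc02g069830 up to 2.25-fold for Solyc02g024070. Of the cells with any UMI of a copy, between 67.0% (Solyc11g069470, replicate 1) and 95.4% (Solyc02g069830, replicate 1) had exactly 1.

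The family was most abundant in xylem-marked cells. Its summed level there was 242 CPM in replicate 1 (208 to 280) and 387 CPM in replicate 2 (332 to 449), against 25.4 and 44.6 CPM in unmarked cells, 9.53-fold and 8.68-fold. Averaged over cells in place of summed counts, it was 248 and 214 CPM in xylem-marked cells, against 39.4 and 84.7 CPM in unmarked cells, 6.30-fold and 2.53-fold. All 5 copies that passed the filter on low counts rose in xylem-marked relative to unmarked cells (edgeR quasi-likelihood test over 12735 genes, with Benjamini-Hochberg adjusted p between 1.58e-05 for Solyc08g066500 and 0.00213 for Solyc11g069470). Of all genes tested, 13.6% were called higher in this comparison. The median log2 fold change of the 5 copies was 2.72, and that of all genes tested was -0.17. Solyc02g069830 did not pass the filter and was not tested under it. Solyc02g024070 passed the filter only through its level in xylem-marked cells, so its calls for that class are not independent of the filter. With no filter on low counts, 5 of 6 copies were called higher in xylem-marked than in unmarked cells, where 1823 of 21682 genes were.

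**Figure D1:**
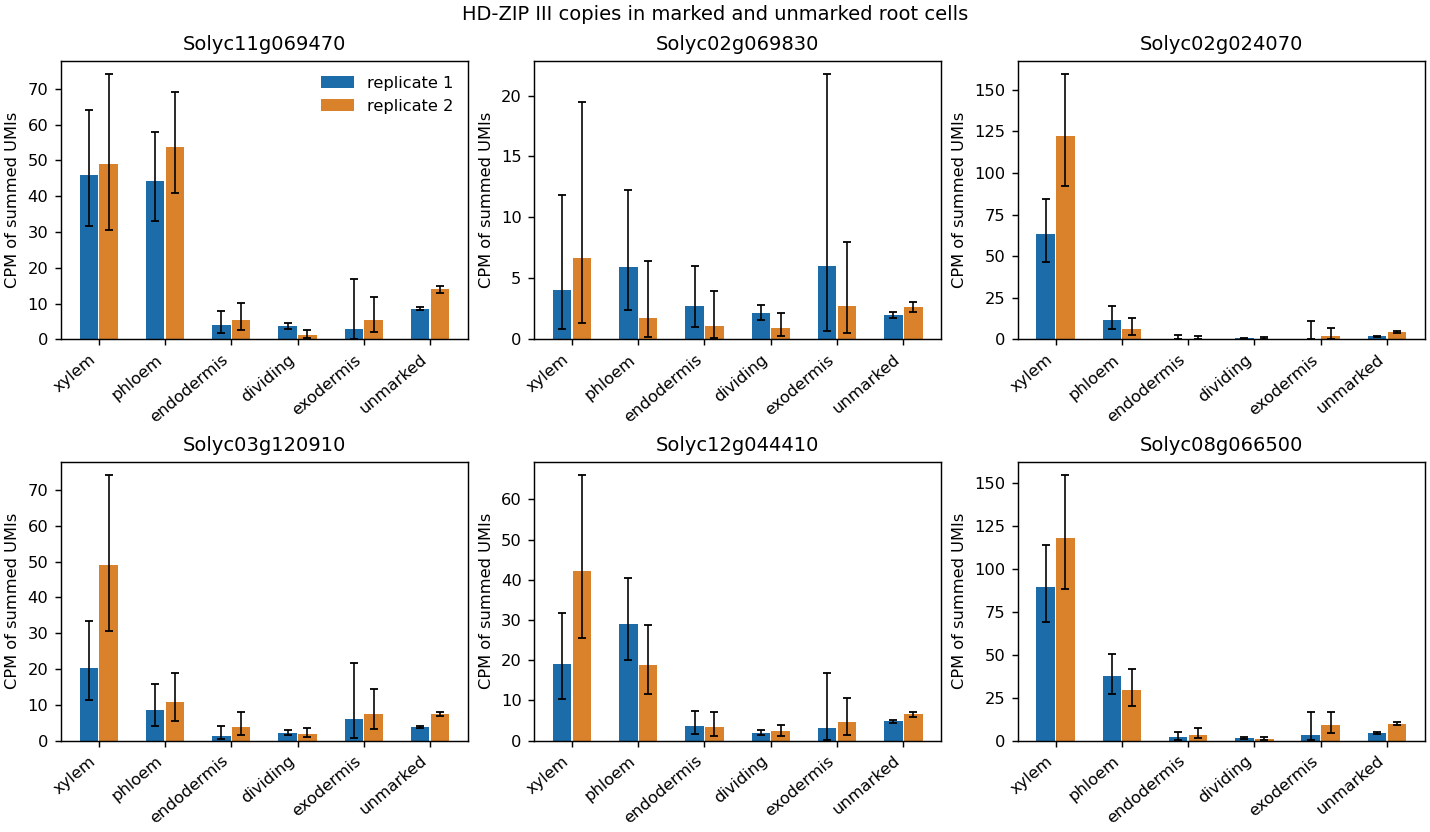
Level of each HD-ZIP III copy (CPM of summed UMIs, linear axes that differ between panels) in cells marked for 5 classes and in unmarked cells, for each library. Bars are the level in a library and whiskers the exact 95% Poisson interval. Solyc02g024070 stands at 63.5 and 122 CPM in xylem-marked cells and at 1.88 and 4.30 CPM in unmarked cells, while Solyc11g069470 is as high in phloem-marked as in xylem-marked cells.

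Solyc02g024070 showed the widest range between classes. Its level was 63.5 CPM in replicate 1 (47 UMIs) and 122 CPM in replicate 2 (55 UMIs) in xylem-marked cells, against 1.88 and 4.30 CPM in unmarked cells. The groups did not overlap, which carries little weight with 2 libraries per group. Its change of 5.07 ± 0.45 on the log2 scale (SE) had an edgeR adjusted p of 1.80e-05, in a fit that it entered only through its xylem-marked level. In xylem-marked cells it averaged 92.9 ± 41.6 CPM (SD, n = 2). Solyc08g066500 averaged 104 ± 20.3 CPM in the same class (SD, n = 2). It had 89.2 and 118 CPM in xylem-marked cells, against 4.35 and 9.74 CPM in unmarked cells, a change of 4.07 ± 0.36 on the log2 scale with an edgeR adjusted p of 1.58e-05. Both copies were also higher in xylem-marked than in every other class in each library.

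The remaining copies rose less. Solyc03g120910 had 20.3 and 48.9 CPM in xylem-marked cells, against 3.83 and 7.36 CPM in unmarked cells (log2 fold change 2.72 ± 0.40, SE). Solyc12g044410 had 18.9 and 42.2 CPM, against 4.76 and 6.53 CPM in unmarked cells (2.49 ± 0.41). Solyc11g069470 had 45.9 and 48.9 CPM, against 8.54 and 14.0 CPM in unmarked cells (2.23 ± 0.39). For each of these copies both xylem-marked values lay above both unmarked values, an order that carries little weight with 2 libraries per group. How many of all genes show this order is not given here. Solyc02g069830 was counted 3 times in xylem-marked cells of each library, 4.05 and 6.67 CPM, against 2.01 and 2.65 CPM in unmarked cells, with Poisson intervals that overlapped.

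A single xylem-marked cell of replicate 2 held 75 of the 174 family UMIs of its class. It had 55167 UMIs in all, more than 99.1% of the cells of its library, and its counts included 30 UMIs of Solyc08g066500 and 21 of Solyc02g024070. Without it, the family level in xylem-marked cells of replicate 2 was 251 CPM (204 to 305), Solyc02g024070 stood at 86.1 CPM and Solyc08g066500 at 58.2 CPM. The means of the libraries were then 74.8 ± 16.0 CPM for Solyc02g024070 and 73.7 ± 21.9 CPM for Solyc08g066500 (SD, n = 2), which do not differ beyond their spread. All 5 tested copies were still called higher in xylem-marked than in unmarked cells without this cell. The xylem list was shortened by each of its 3 markers in turn. All 5 copies were called without Solyc02g072240, but 3 without Solyc09g072820 and 3 without Solyc07g005840. The copies lost in both of these cases were Solyc11g069470 and Solyc12g044410. Of all genes, 1733 of 12723 were called higher without Solyc02g072240 and 1516 of 12714 without Solyc09g072820. The numbers over all genes without Solyc07g005840 and without the single cell are not given here. After every cell was thinned to 2000 UMIs, only 3 copies could be tested and 2 were called, where 785 of 6292 genes were called higher. In xylem-marked cells the 5 phloem markers summed to 14.9 and 44.5 CPM with 2 of 5 detected in each library, against 2226 and 2982 CPM in phloem-marked cells.

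Phloem-marked cells also held more HD-ZIP III UMIs than unmarked cells. The family summed to 137 CPM (117 to 160) and 121 CPM (101 to 143) in phloem-marked cells, against 25.4 and 44.6 CPM in unmarked cells, 5.40-fold and 2.71-fold. The test called 3 of 5 copies higher, where 15.4% of all genes tested were called higher. The median log2 fold change of the 5 copies was 2.04, and that of all genes was close to 0.

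Solyc08g066500 rose with 37.4 and 29.5 CPM in phloem-marked cells, against 4.35 and 9.74 CPM in unmarked cells (2.28 ± 0.36 on the log2 scale, edgeR adjusted p = 0.00116). Solyc11g069470 rose with 44.2 and 53.7 CPM, against 8.54 and 14.0 CPM in unmarked cells (2.07 ± 0.34, edgeR adjusted p = 0.00149). Solyc12g044410 rose with 28.9 and 18.8 CPM, against 4.76 and 6.53 CPM in unmarked cells (2.04 ± 0.36, edgeR adjusted p = 0.00207). For each of these 3 copies both libraries of phloem-marked cells lay above both of unmarked cells, which again carries little weight with 2 libraries per group. The share of all genes with that order is not given here. Solyc02g024070 had 11.9 and 6.27 CPM in phloem-marked cells, against 1.88 and 4.30 CPM in unmarked cells, and just missed the threshold (1.61 ± 0.55, edgeR adjusted p = 0.051). Solyc03g120910 did not pass either, with 8.51 and 10.7 CPM in phloem-marked cells, against 3.83 and 7.36 CPM in unmarked cells (0.75 ± 0.43, edgeR adjusted p = 0.225). Solyc02g024070 was called as well under several alternatives, among them other size factors, no filter on low counts and the looser gate. With the stricter gate it was called and Solyc11g069470 was not. After thinning, 2 of the 3 testable copies were called, where 819 of 6292 genes were called higher.

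The vascular classes were also set directly against each other. In xylem-marked relative to phloem-marked cells, 3 of 5 copies were higher and none lower, where 10.7% of all genes tested were called higher and 10.7% lower. Solyc02g024070 rose most, with 63.5 and 122 CPM in xylem-marked cells, against 11.9 and 6.27 CPM in phloem-marked cells (3.45 ± 0.52 on the log2 scale, edgeR adjusted p = 0.000974). Within single libraries its ratio was 5.33 (2.89 to 10.5) in replicate 1 and 19.5 (8.86 to 50.8) in replicate 2, by exact conditional intervals. Solyc03g120910 rose by 1.96 ± 0.47 (edgeR adjusted p = 0.014) and Solyc08g066500 by 1.79 ± 0.38 (edgeR adjusted p = 0.00699) on the log2 scale. All 3 rises drew in replicate 2 on the single xylem-marked cell described above. Without it, the xylem-marked levels of replicate 2 were 86.1 CPM for Solyc02g024070, 30.4 CPM for Solyc03g120910 and 58.2 CPM for Solyc08g066500. The phloem-marked levels of replicate 2 were 6.27, 10.7 and 29.5 CPM. Solyc11g069470 and Solyc12g044410 did not pass, with log2 fold changes of 0.16 ± 0.41 and 0.45 ± 0.43. Solyc11g069470 was at 45.9 and 48.9 CPM in xylem-marked cells, against 44.2 and 53.7 CPM in phloem-marked cells, and the groups overlapped. Solyc12g044410 was at 18.9 and 42.2 CPM in xylem-marked cells, against 28.9 and 18.8 CPM in phloem-marked cells, and was the higher in a different class in each library. Dropping either Solyc09g072820 or Solyc07g005840 from the xylem list left Solyc02g024070 as the single copy called, while dropping Solyc02g072240 left the same count of 3, and none of the 3 copies testable after thinning was called. Of all genes, 1209 of 12714 were called higher without Solyc09g072820, 1348 of 12723 without Solyc02g072240 and 571 of 6292 after thinning. The number without Solyc07g005840 is not given here.

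**Figure D2:**
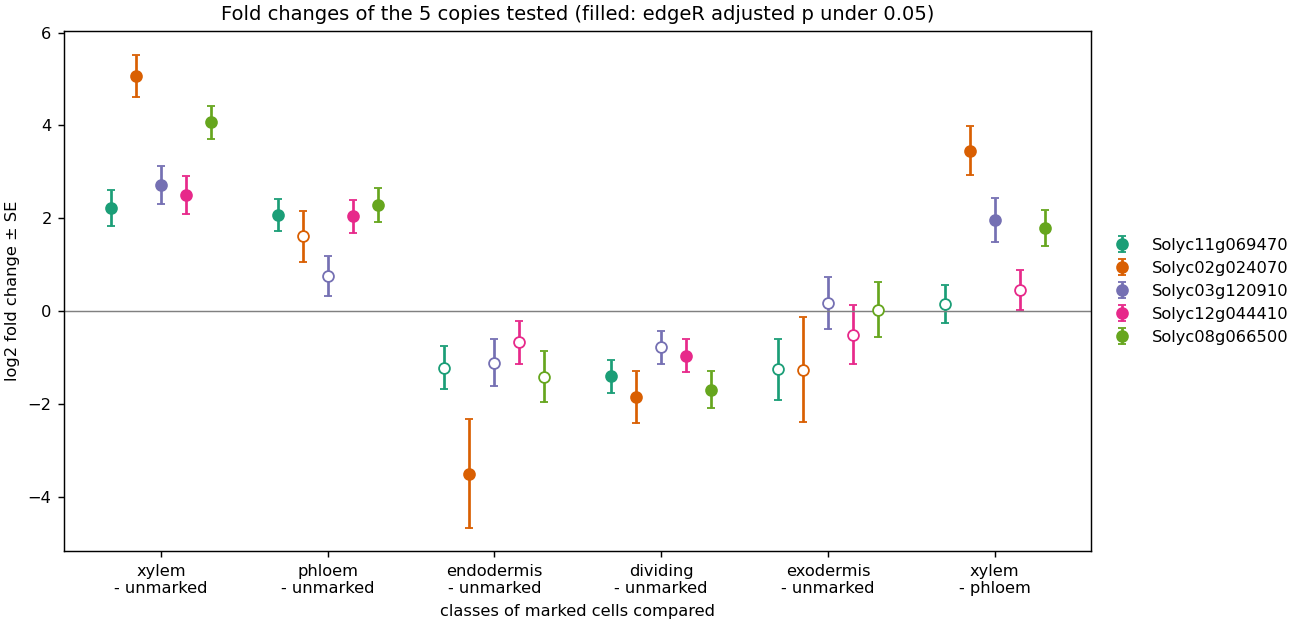
Log2 fold change with its SE (edgeR) for the 5 copies tested, for each marked class minus unmarked cells and for xylem-marked minus phloem-marked cells. Filled points passed an adjusted p of 0.05 over 12735 genes, and the 5 copies are filled and above 2 on the log2 scale in the xylem comparison, while none is filled in the exodermis comparison.

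Endodermis-marked cells held little of the family, 14.3 CPM (9.73 to 20.3) and 16.9 CPM (11.5 to 24.0), against 25.4 and 44.6 CPM in unmarked cells. Here 1 of the 5 copies was called lower, where 15.1% of all genes tested were. That copy was Solyc02g024070, with 0.462 CPM (1 UMI) and 0 CPM in endodermis-marked cells, against 1.88 and 4.30 CPM in unmarked cells (-3.50 ± 1.17 on the log2 scale, edgeR adjusted p = 0.0438). Its 0 of 1831253 UMIs in replicate 2 allows a level of up to 1.64 CPM, taking 3 UMIs as the limit, and the exact Poisson upper limit is 2.01 CPM. This call did not hold under DESeq2, without the block for library, with the stricter gate, with multiply marked cells assigned, after thinning cells to 2000 UMIs, or with the xylem list without Solyc09g072820 or without Solyc07g005840. The other 4 copies did not pass, with log2 fold changes between -1.41 for Solyc08g066500 and -0.67 for Solyc12g044410. The smallest edgeR adjusted p among them was 0.0714, for Solyc11g069470. Against xylem-marked cells the contrast was wide. All 5 copies were higher in xylem-marked than in endodermis-marked cells, where 16.8% of all genes were, with a median log2 fold change of 3.83. Solyc02g024070 was at least 74.6-fold higher in xylem-marked cells of replicate 2, taking 3 UMIs in the library's endodermis-marked cells as the limit. The lower limit of the exact conditional interval was 58.7-fold, and 21 of the 55 UMIs in xylem-marked cells came from the single cell described above. In phloem-marked relative to endodermis-marked cells all 5 copies were higher too, where 13.3% of all genes were. With the stricter gate 3 of the 5 were called there, where 1419 of 11047 genes were called higher.

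Dividing-marked cells were the deepest class, with median depths of 28745 and 24532 UMIs, and had the lowest family level by summed counts, 12.0 CPM (10.5 to 13.5) and 7.74 CPM (5.55 to 10.5), against 25.4 and 44.6 CPM in unmarked cells. Averaged over cells they were not the lowest class, with 17.7 and 28.1 CPM, against 39.4 and 84.7 CPM in unmarked cells. The test called 4 of 5 copies lower, where 25.2% of all genes tested were lower. Solyc02g024070 fell to 0.559 and 0.378 CPM in dividing-marked cells, against 1.88 and 4.30 CPM in unmarked cells (log2 fold change -1.86 ± 0.56, SE). Solyc08g066500 fell to 1.54 and 0.944 CPM, against 4.35 and 9.74 CPM in unmarked cells (-1.69 ± 0.40). Solyc11g069470 fell to 3.68 and 1.32 CPM, against 8.54 and 14.0 CPM in unmarked cells (-1.40 ± 0.36). Solyc12g044410 fell to 1.91 and 2.27 CPM, against 4.76 and 6.53 CPM in unmarked cells (-0.96 ± 0.36). Solyc03g120910 had 2.14 and 1.89 CPM, against 3.83 and 7.36 CPM in unmarked cells, and did not pass (-0.78 ± 0.36). After thinning, none of the 3 testable copies was called lower, and their log2 fold changes were -2.07 ± 1.44 for Solyc02g024070, -1.31 ± 0.77 for Solyc08g066500 and -1.21 ± 0.69 for Solyc11g069470 (SE). There 1356 of 6292 genes were called lower. All 5 copies were higher in xylem-marked than in dividing-marked cells, where 20.2% of all genes were, and all 5 were higher in phloem-marked than in dividing-marked cells, where 27.4% were. Between endodermis-marked and dividing-marked cells none of the 5 was called by edgeR, none had an unadjusted p under 0.05, and DESeq2 called none. There 26.4% of all genes were called higher and 28.2% lower.

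In exodermis-marked cells the family stood at 21.1 CPM (8.47 to 43.4) and 30.9 CPM (21.4 to 43.2), against 25.4 and 44.6 CPM in unmarked cells. None of the 5 copies was called by edgeR, none had an unadjusted p under 0.05 and DESeq2 called none, where edgeR called 10% of all genes higher and 6.71% lower. The class rests on 7 family UMIs in replicate 1 and 34 in replicate 2. Exodermis-marked cells were also shallow, with median depths of 2455 and 2022 UMIs.

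The list of other genes of the pathway could be matched to the tables for only 2 identifiers, since no table at hand names the rest. Of these, Solyc10g074680 is in the endodermis marker list and is not tested for that reason. Solyc02g092370 was higher in endodermis-marked cells, with 4.16 and 12.6 CPM, against 1.32 and 3.30 CPM in unmarked cells (1.86 ± 0.50 on the log2 scale, edgeR adjusted p = 0.0191, where 14.5% of all genes tested were higher). It did not pass in xylem-marked cells (6.76 and 4.45 CPM) or in phloem-marked cells (5.11 and 5.37 CPM) against unmarked cells.

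To see the family beyond the marked cells, cells were clustered on genes that excluded the 6 copies, the markers and the pathway list. This gave 29 clusters, of which 25 held 10 cells or more of both libraries. The levels are a description with no test. The level of a copy over these 25 clusters had a Pearson correlation between the libraries of 0.67 (Solyc02g024070) to 0.86 (Solyc12g044410), on the log2(CPM + 1) scale.

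The 4 clusters with the highest summed level of the family, numbered 26, 18, 7 and 16, held 9.17% of the cells of replicate 1 and 14.1% of those of replicate 2. They held 50.6% and 57.0% of the family's UMIs, and 5.35% and 7.24% of all UMIs. Cluster 26 was xylem-like. All 3 xylem markers peaked in it, and it held 57 of 59 and 68 of 72 xylem-marked cells. Its family level was 328 CPM (303 to 354) and 549 CPM (507 to 593), the highest of the 25 in both libraries. Solyc02g024070, Solyc03g120910 and Solyc08g066500 each had their highest level there, with 72.2 and 162 CPM, 61.8 and 102 CPM, and 99.1 and 161 CPM.

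Clusters 18, 7 and 16 held few marked cells and stay unnamed. Cluster 7 had 447 and 650 cells, of which 6 and 6 were phloem-marked and none was xylem-marked. It had the highest level of Solyc11g069470, 120 and 134 CPM, and 43.9% and 35.1% of all UMIs of that copy. Cluster 18 had 83 and 505 cells, mostly of replicate 2, with a family level of 213 CPM (174 to 259) and 325 CPM (295 to 358) and the highest level of Solyc02g069830, 14.6 and 22.4 CPM. Cluster 16 had 482 and 135 cells, mostly of replicate 1, none of them marked for xylem, phloem, endodermis or exodermis, with 138 CPM (120 to 157) and 191 CPM (150 to 240). These 2 clusters were shallow, with median depths of 3410 and 1727 UMIs in cluster 18 and 2310 and 1819 UMIs in cluster 16. The phloem markers summed to 21.0 and 88.8 CPM in cluster 7, 18.8 and 172 CPM in cluster 18 and 7.12 and 15.7 CPM in cluster 16. The small number of phloem-marked cells beside the highest level of Solyc11g069470 depended on how finely the cells were divided. At a clustering resolution of 2, in place of 1, the cluster with the highest level had 127 and 130 CPM of the copy and 5 and 4 phloem-marked cells. At a resolution of 0.5 it had 108 and 116 CPM and held 60 of 77 and 99 of 146 phloem-marked cells. At a resolution of 2, a cluster of 39 and 22 cells also ranked above the counterpart of cluster 16 by family level.

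**Figure D3:**
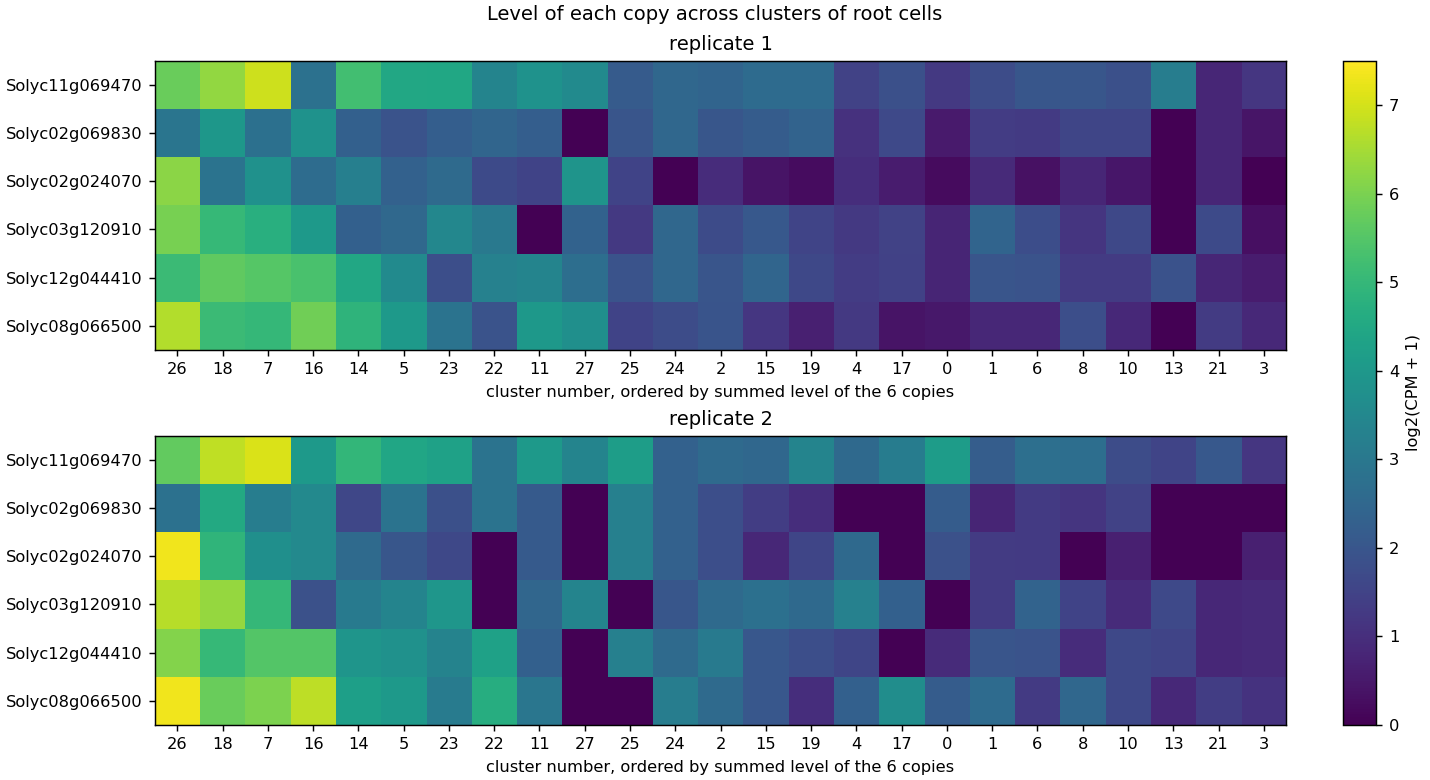
Level of each copy as log2(CPM + 1) in the 25 clusters that held 10 cells or more of both libraries, ordered by the summed level of the 6 copies, for replicate 1 above replicate 2. Clusters 26, 18, 7 and 16 stand out in both libraries, and in cluster 16 Solyc08g066500 and Solyc12g044410 are high while Solyc11g069470 is at 5.93 and 15.7 CPM.

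The make-up of the family differed between these clusters by more than the counting intervals. In cluster 7 Solyc11g069470 gave 50.1% (47.3 to 52.8) and 45.7% (42.2 to 49.3) of the family's UMIs, against 32.7% and 30.5% over all cells. In cluster 16 it gave 4.31% (2.09 to 7.78) and 8.22% (3.08 to 17.0), with the intervals of both libraries below those of all cells. There Solyc08g066500 gave 42.2% (35.8 to 48.9) and 56.2% (44.1 to 67.8), against 18.1% and 22.4% over all cells. In the xylem-like cluster 26 Solyc02g024070 gave 22.0% (18.9 to 25.4) and 29.5% (26.0 to 33.2), against 8.11% and 10.5% over all cells, and Solyc11g069470 16.6% (13.8 to 19.6) and 9.20% (7.08 to 11.7). Cells of 1 library share their source, so the intervals cover counting error only.

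**Figure D4:**
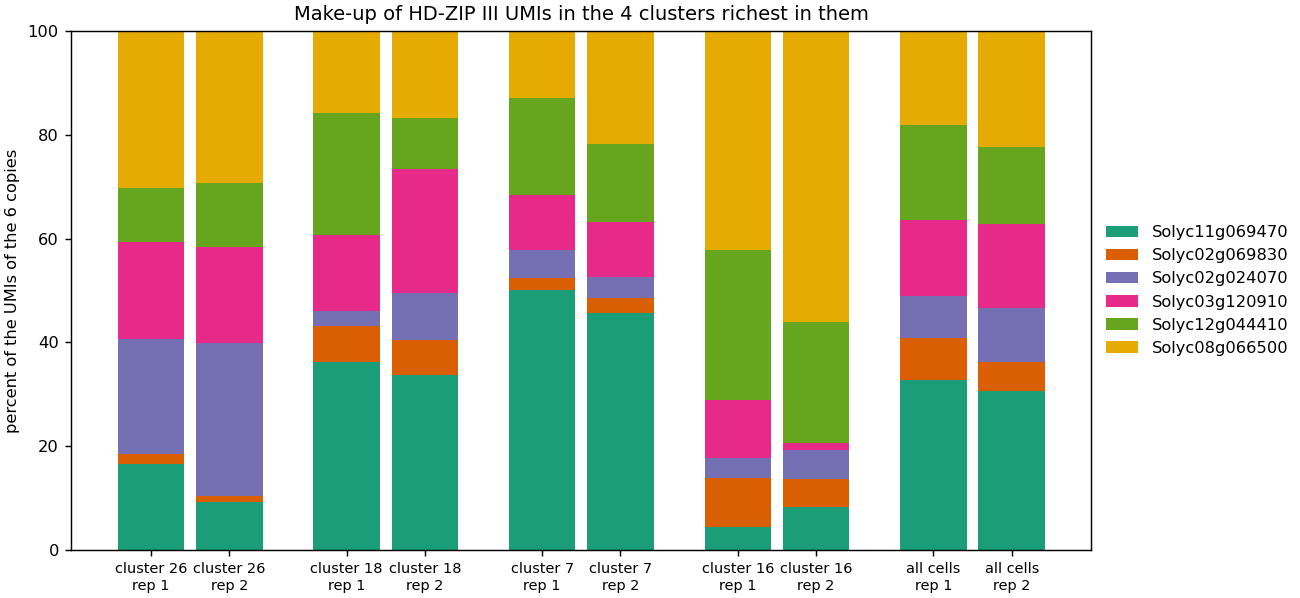
Share of each copy, in percent of the UMIs of the 6 copies, in the 4 clusters with the highest summed level and in all cells, with a bar for each library. Solyc11g069470 takes 50.1% and 45.7% of cluster 7 but 4.31% and 8.22% of cluster 16, where Solyc08g066500 takes 42.2% and 56.2%.

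Other clusters held the family at lower levels. Cluster 14 was phloem-like, with 4 of 5 phloem markers peaking in it and 58 of 77 and 108 of 146 phloem-marked cells, and stood at 103 CPM (88.6 to 119) and 77.0 CPM (65.3 to 90.2). The clusters with most endodermis-marked, dividing-marked and exodermis-marked cells, numbered 15, 10 and 24, stood at 17.9 and 19.1 CPM, 9.32 and 9.76 CPM, and 21.3 and 28.1 CPM.

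Inside the xylem-like cluster, the cells that did not pass the xylem gate held more of the family than those that did. Their family level was 379 CPM (346 to 414) and 622 CPM (567 to 681), against 232 CPM (197 to 270) and 411 CPM (351 to 478) in the xylem-marked cells of the cluster. The gap was widest for Solyc03g120910, with 84.6 CPM (69.6 to 102) and 128 CPM (104 to 156) in the cells outside the gate, against 18.7 CPM (9.96 to 32.0) and 52.0 CPM (32.2 to 79.5) in the marked cells. For Solyc12g044410 the values were 42.7 CPM (32.2 to 55.4) and 81.2 CPM (62.2 to 104) outside the gate. In the marked cells they were 17.3 CPM (8.92 to 30.2) and 42.1 CPM (24.5 to 67.4), so the intervals overlapped in replicate 2. Solyc02g024070 had 77.7 and 175 CPM outside the gate, against 61.9 and 136 CPM in the marked cells. Solyc08g066500 had 106 and 178 CPM outside the gate, against 86.3 and 129 CPM in the marked cells. The intervals of both copies overlapped in each library. In replicate 2 the marked cells of the cluster included the single cell described above, with 75 of their 166 family UMIs. Without it, Solyc02g024070 stood at 86.1 CPM (59.6 to 120) in all xylem-marked cells of replicate 2. Solyc08g066500 stood at 58.2 CPM (36.9 to 87.4) there and Solyc12g044410 at 25.3 CPM (12.1 to 46.6). These intervals lay under those outside the gate, which began at 147, 149 and 62.2 CPM in that order. Solyc11g069470 differed by less than its counting intervals, with 60.2 and 52.4 CPM outside the gate, against 43.2 and 47.0 CPM in the marked cells. The median depth was 13543 and 3617 UMIs outside the gate, against 7222 and 3441 UMIs in the marked cells.

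The same direction appeared among the xylem-marked cells when they were split into 3 equal parts by the share of xylem marker UMIs in each cell. Solyc02g024070 had no UMI in the part with the highest share in either library, against 76.9 CPM (39 UMIs) and 179 CPM (50 UMIs) in the part with the lowest share. With 3 UMIs as the limit, a count of 0 allows up to 24.4 CPM in the highest part of replicate 1 and 36.9 CPM in that of replicate 2, and the exact Poisson upper limits are 30.0 and 45.4 CPM. Of the 50 UMIs in the lowest part of replicate 2, 29 remained without the single cell described above, a level of 129.6 CPM. Solyc03g120910 and Solyc12g044410 also had 0 UMIs in the highest part of both libraries. Their levels in the lowest part were 19.7 and 64.6 CPM for Solyc03g120910 and 19.7 and 68.2 CPM for Solyc12g044410, so that in replicate 1 a difference was not detectable at this depth. In replicate 2 the same cell held 10 of the 18 UMIs of Solyc03g120910 and 9 of the 19 of Solyc12g044410. Without it the lowest part stood at 35.8 CPM for Solyc03g120910 and 44.7 CPM for Solyc12g044410, both under the exact limit, so no difference was detectable there either.

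Solyc08g066500 went against this pattern in replicate 1. It stood at 163 CPM (99.4 to 251) in the highest part and 75.0 CPM (53.1 to 103) in the lowest part there, and at 61.5 CPM (20.0 to 144) in the highest part and 162 CPM (118 to 216) in the lowest part of replicate 2. Of the 45 UMIs in the lowest part of replicate 2, 30 came from that cell, and 67.0 CPM remained without it. Solyc11g069470 was counted in all 3 parts of both libraries, at 32.6 and 36.9 CPM in the highest part and 51.3 and 61.0 CPM in the lowest part, with overlapping intervals. The parts have 19 to 24 cells each. Depth moved with them, with a median of 4227 and 2224 UMIs per cell in the highest part and 19542 and 4522 in the lowest part, and its part in these values was not tested.

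**Figure D5:**
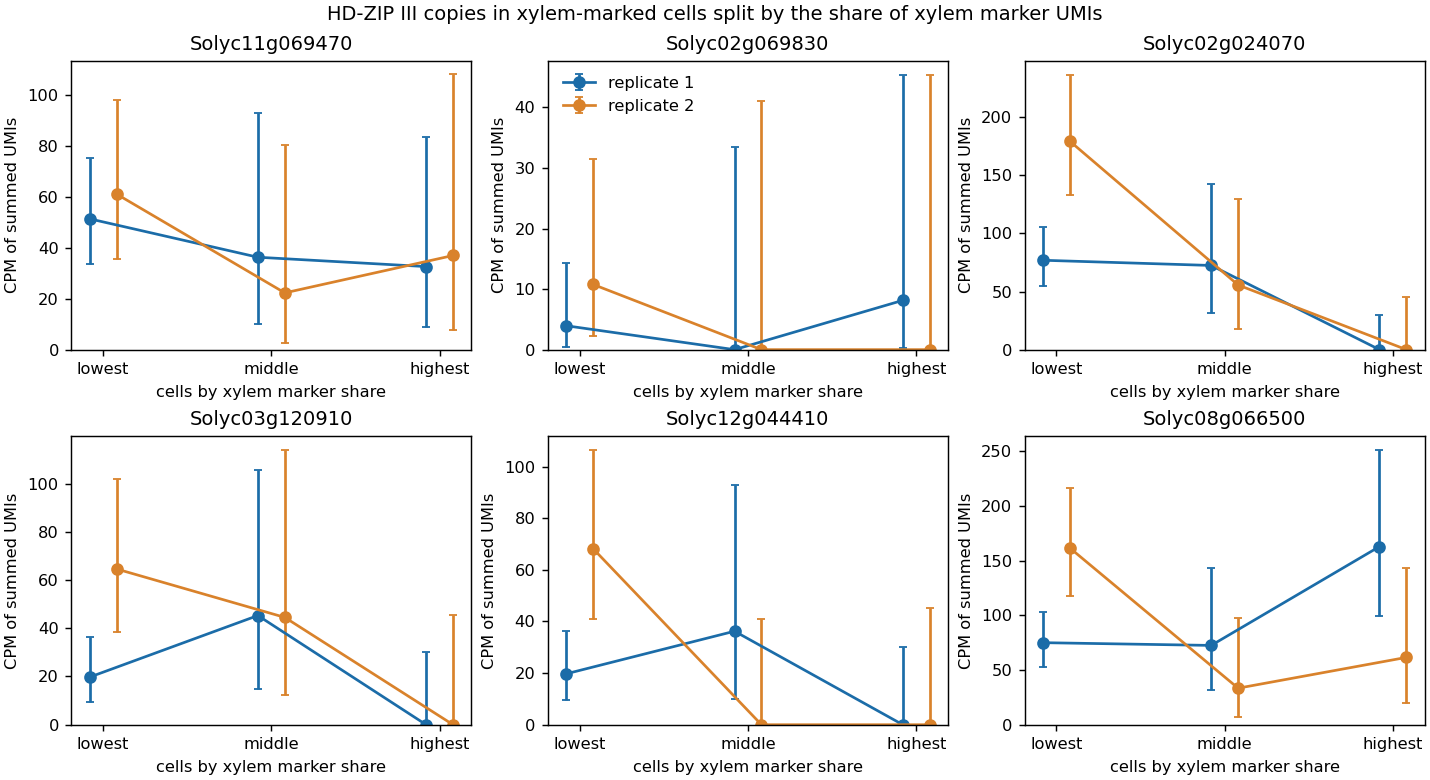
Level of each copy (CPM of summed UMIs, linear axes that differ between panels) in xylem-marked cells split into 3 equal parts by their share of xylem marker UMIs, for each library. Whiskers are exact 95% Poisson intervals, and Solyc02g024070, Solyc03g120910 and Solyc12g044410 are at 0 in the highest part of both libraries, while Solyc08g066500 is at 163 and 61.5 CPM.

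Phloem-marked cells split in the same way by phloem marker share showed other patterns. Solyc08g066500 stood at 109 CPM (68.0 to 164) in the highest part of replicate 1, against 12.4 CPM (5.37 to 24.5) in the lowest part, and at 41.0 and 22.6 CPM in these parts of replicate 2, where the intervals overlapped. Solyc12g044410 stood at 44.4 and 41.0 CPM in the highest part, against 24.9 and 12.7 CPM in the lowest part, with intervals that overlapped in both libraries. Solyc03g120910 was at 0 in the highest part of both libraries and at 14.0 and 12.7 CPM in the lowest part. Its floors of 14.8 and 20.5 CPM lie above those levels, so no difference was detectable at this depth.

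The share of cells with a UMI of the family was compared after thinning each cell to 2000 UMIs and leaving out shallower cells, which kept 46 and 45 xylem-marked cells. At least 1 copy was counted in 21.7% (10.9 to 36.4) and 28.9% (16.4 to 44.3) of xylem-marked cells and in 23.0% (14.0 to 34.2) and 16.0% (9.63 to 24.4) of phloem-marked cells (exact Clopper-Pearson intervals). In exodermis-marked cells the share was 5.26% (0.644 to 17.7) and 5.00% (1.86 to 10.6). These intervals overlap those of xylem-marked cells in replicate 1 and of phloem-marked cells in both libraries. Of all thinned cells, 94.2% and 91.5% held none of the copies. The median depth before thinning of the cells used was 9848 and 4723 UMIs in xylem-marked cells, 10708 and 7205 in phloem-marked cells and 6916 and 5496 in exodermis-marked cells. Endodermis-marked cells (5.56% and 2.66%) and dividing-marked cells (2.97% and 4.19%) had shares near or under those of exodermis-marked cells. No class known to lack the family was at hand, so low shares could not be told apart from counts of RNA from outside the cell. Without thinning, the shares were 57.6% and 40.3% in xylem-marked cells, 64.9% and 38.4% in phloem-marked cells and 9.09% and 8.37% in exodermis-marked cells.

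The copies were counted in the same cells more often than the product of their shares. In the thinned cells 14 of the 15 pairs of copies exceeded that product in both libraries. The exception was Solyc02g069830 with Solyc03g120910, which had no cell in common in replicate 1, where 0.458 would be the product, and 3 cells in replicate 2. The largest ratios were those of Solyc02g024070 with Solyc08g066500, 13.1 in replicate 1 (8 cells) and 10.1 in replicate 2 (14 cells), and of Solyc02g024070 with Solyc12g044410 in replicate 2, 10.4 (11 cells). Of the thinned cells with Solyc02g024070, 19.5% and 23.0% also had Solyc08g066500. When the product was taken within each cluster and summed, the ratios of Solyc02g024070 with Solyc08g066500 were 2.29 and 2.08. In unthinned cells, 6 cells of replicate 1 and 3 of replicate 2 held all 6 copies, and 10367 and 8541 held none. These ratios are descriptions of pooled cells that differ in type, with no test.

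The copies resembled each other across clusters to different degrees. Among 11060 genes with at least 20 CPM in at least 1 cluster of each library, the gene whose level over the 25 clusters was most like that of Solyc08g066500 was another copy, Solyc12g044410, with Pearson correlations of 0.90 in replicate 1 and 0.81 in replicate 2. Solyc12g044410 was also the second gene in likeness to Solyc02g069830 (0.75 and 0.83). For the other copies the 3 most alike genes were outside the family. Solyc09g090910 was among the 3 for both Solyc11g069470 (0.88 and 0.87) and Solyc02g024070 (0.86 and 0.76), and Solyc04g072940 led for Solyc12g044410 (0.90 and 0.88). The points are clusters of the same libraries that share depth differences, so the correlations describe these cells and carry no test.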

How the data were processed

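The deposited values were raw UMI counts per gene and cell barcode, which the authors made with Cell Ranger 6.0.1 on the SL4.0 tomato genome from 3′ libraries of protoplasted roots. Replicate 1 summed to 187215851 UMIs and replicate 2 to 81175339. The count tables give gene identifiers only.

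Filters followed the study's methods. Cells under 500 UMIs or above 1% organelle UMIs, genes seen in 3 cells or fewer, 820 protoplasting-induced genes and 28 organelle entries were left out. Doublets were kept, since the methods name no removal step. Of 28 marker identifiers listed, 26 were used (3 xylem, 5 phloem, 4 endodermis, 7 dividing and 7 exodermis), and the other 2, both in the dividing list, were not analysed here. Apart from the study's suberin genes among the exodermis markers, no source at hand names the marker identifiers, so the classes are known only by their lists. Clusters came from the Leiden method (leidenalg 0.10.2, 2000 variable genes, 35 principal components, 20 neighbours, resolution 1, seed 1).

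Counts were summed per library and class into 12 sums and fitted together in edgeR 4.0.16 (TMM, filterByExpr, glmQLFit and glmQLFTest, library as a block), with 11 contrasts and Benjamini-Hochberg adjustment over 12735 genes at a threshold of 0.05. The SE was computed by dividing each log2 change, without its sign, by the root of its F statistic. The block was used because the classes of a library come from the same pool of roots. Over 9170 genes, the deviations of same-library sums from their class means correlated at 0.21 to 0.62 in the 15 pairs of classes. With the block, p-values rest on how class differences varied between the libraries, with a spread shared by all classes. The labels do not say whether the libraries came from separate sowings, so that spread may be technical. In data simulated for xylem-marked minus unmarked cells (11092 genes tested, dispersion 0.1), 81.3% of 8-fold and 1.15% of 2-fold changes were recovered and 1.32% of calls were false. Small changes thus mostly went unseen in the simulated data. Their dispersion was set and is not shown to match that of the real sums, and the other comparisons were not simulated. Alternatives used DESeq2 1.42.0, other gates, filters, depths and resolutions.

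The 6 genes and all lists were chosen with earlier results of these data known. Named genes were the 6 copies and, for each, the 3 genes most alike over clusters, with at most 2 identifiers that have no name in the sources.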

Additional observations from a re-analysis of the deposited data

How the results depend on the processing

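Of the comparisons of single copies under the alternatives, 840 kept their direction and their side of the threshold, 14 gained a call, 43 lost one and 16, none of them called, changed sign. With no replicate block for library, the copies called lower in endodermis-marked minus unmarked cells fell to 0, against 1 with the block, and those called lower in dividing-marked cells to 3, against 4. Without the block, 385 and 1798 of all 12735 genes were called lower in these comparisons. The count of copies lower in endodermis-marked cells was also 0 under DESeq2, the stricter gate (5 UMIs from 3 markers, or from 2 for the xylem list), multiply marked cells assigned and the xylem list without Solyc09g072820 or Solyc07g005840, 3 with no filter on low counts and 2 without the top 5% of cells by UMIs. Of all genes, 1741 of 12735 were lower there under DESeq2, 1720 of 11047 with the stricter gate and 1970 of 12959 with multiply marked cells assigned. The numbers were 1459 of 12714 without Solyc09g072820, 2664 of 21682 with no filter and 1877 of 12266 without the top 5%, and that without Solyc07g005840 is not given here. The xylem lists without Solyc09g072820 or Solyc07g005840, chosen after seeing the data, left 3 copies higher in xylem-marked minus unmarked cells and 1 in xylem-marked minus phloem-marked cells, while the list without Solyc02g072240 gave 5 and 3, as the full list did. Without Solyc09g072820, 1516 and 1209 of all 12714 genes were higher in these comparisons, and the numbers without Solyc07g005840 are not given here. Thinning to 2000 UMIs left 3 copies to test, because fewer genes passed the filter. It gave 2 higher for xylem minus unmarked, 0 lower for endodermis and 0 lower for dividing minus unmarked, 0 higher for xylem minus phloem, 3 for xylem minus endodermis, 2 for xylem minus dividing, 2 for phloem minus endodermis and 3 for phloem minus dividing. In the same order and direction, 785, 833, 1356, 571, 929, 1059, 733 and 1338 of all 6292 genes were called. The stricter gate left 3 copies higher for phloem minus endodermis, the looser gate (2 UMIs) gave 1 lower for endodermis minus dividing, and leaving out the top 5% of cells gave 1 lower for exodermis minus unmarked. The calls over all genes were 1419 of 11047, 3577 of 12955 and 1004 of 12266 in that order. Beyond the smaller number of copies tested after thinning, the cause of these changes was not tested.

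The changes of sign, as log2 fold changes, were as follows. In exodermis-marked minus unmarked cells Solyc03g120910 was at -0.46 with the stricter gate and -0.54 without the top 5% of cells, and Solyc08g066500 at -0.052 with no filter, -0.61 with the stricter gate, -0.11 with multiply marked cells assigned and -0.42 without the top 5%. In xylem-marked minus phloem-marked cells Solyc11g069470 was at -0.082 with the looser gate, -0.80 after thinning, -0.65 without Solyc09g072820 and -0.77 without Solyc07g005840, and Solyc12g044410 at -1.40 and -1.45 without these markers. In endodermis-marked minus dividing-marked cells Solyc11g069470 was at -0.12 with the looser gate and -0.91 after thinning, and Solyc12g044410 at -0.31 with the stricter gate and -0.15 without the top 5%. Taken as a mean over cells, the family level averaged 231 CPM in xylem-marked, 162 CPM in phloem-marked, 22.8 CPM in endodermis-marked, 22.9 CPM in dividing-marked, 20.1 CPM in exodermis-marked and 62.0 CPM in unmarked cells, against 314, 129, 15.6, 9.85, 26.0 and 35.0 CPM from summed counts. In the simulated comparison of xylem-marked with unmarked cells, changes as small as 2-fold were mostly out of reach of the test. The other classes were not simulated.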
